A study of Mus musculus with 16 samples.

Results

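Mucin-type glycosyltransferases are the Golgi enzymes that build the sugar chains of mucus. The set held every gene of the deposited mouse colon table whose symbol begins with Galnt, B3gnt, B3galt, B4galnt, St3gal, St6gal, Gcnt, Fut, C1galt or Chst. That rule, which reads names and no measured value, gave 72 of 16039 genes. A minimum level of 0.05 normalised UMIs per cell in at least 2 mice left 46 of the 72 in the epithelial comparisons and 43 in goblet cells. The remaining members were too low to test there. St6galnac1, St6gal2, Fut7, Chst5, Chst9, B3gnt4, Gcnt7 and Galntl5, which also belong to these families, were not among the genes of that table and could not be analysed.

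O-glycosylation of a mucin begins when a Galnt enzyme links N-acetylgalactosamine to a serine or threonine. C1galt1 (with its chaperone C1galt1c1) or B3gnt6 then makes core 1 or core 3, Gcnt enzymes add branches, B3gnt, B3galt and B4galnt enzymes lengthen the chain, and sialic acid, fucose or sulfate caps its ends. In the colon these chains make up most of the mass of Muc2, the gel-forming mucin of goblet cells, and feed and anchor gut bacteria. The name rule also took in enzymes of other glycans, among them Fut8 (core fucose of N-glycans), B3galt6 (linker of proteoglycans), B4galnt1 and St3gal5 (gangliosides) and Chst11 to Chst15 (mostly chondroitin and related chains).

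The tissue was transverse colon of 16 female C57Bl/6J mice, 7 weeks old, profiled as single cells with 10x Genomics v3 reagents after sorting, with 1 library for each animal. DSS, a detergent-like polymer that injures the colon, was given at 4% in the drinking water to 12 of them. Dosing was at 10 mg/kg on day 4, with an anti-GFP antibody as control or with SZN-1326-p, an activator of Wnt signals by way of Frizzled receptors, and tissue was taken 24 h or 48 h later (3 mice for each agent and time). At each time 2 uninjured mice, which had no DSS and for which no dosing is listed, were taken too. All groups therefore share strain, sex and age, and the injured groups also share DSS that continued to the end.

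The table held 22717 cells, 936 to 2033 for each mouse, with 9616512 to 21335421 UMIs (counted molecules) per mouse. The deposited annotation gave 46 cell types, of which 17 were epithelial (10373 cells). BasalGoblet, Goblet1 and Goblet2 held 1414 cells, 18 to 202 for each mouse. SZN-1326-p mouse 2 at 48 h, with 18 goblet cells, was left out of the goblet comparisons, so that group had 2 mice there. The goblet names matched their defining marker: Muc2 averaged 610 normalised UMIs per cell in BasalGoblet, 587 in Goblet1 and 291 in Goblet2, and 10.3 or less in each other epithelial type. Tff3, a trefoil peptide that goblet cells secrete, was at 172 in Goblet1 and 151 in Goblet2 but 8.84 in BasalGoblet. Among goblet cells, 3.83% to 33.3% per mouse also held UMIs of 2 or more immune, fibroblast or endothelial markers, and their median mitochondrial share was 21.9% to 36.6% of UMIs. A barcode occurred in more than 1 library for 129 cells (64 barcodes). TA1 cells outnumbered TA2 cells in 4 of the mice taken at 24 h. These were mouse 1 of the SZN-1326-p group (377 and 28), mice 1 (118 and 5) and 2 (70 and 2) given anti-GFP, and the first uninjured mouse (71 and 42). In the other 4 at 24 h TA1 had 6 to 28 cells and TA2 65 to 359. At 48 h anti-GFP mouse 3 also had more TA1 (23) than TA2 (21) cells. The median mitochondrial share of a mouse's cells was 19.2% to 26.1% in uninjured and 5.06% to 11.6% in anti-GFP mice. Among SZN-1326-p mice, mouse 2 at 24 h had 18.9%, mouse 3 at 48 h had 24.1% and the other 4 had 6.54% to 9.66%. Levels below are mean normalised UMIs per cell, and they are used to compare 1 gene across cells or mice, not 1 gene with another.

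The question first asked of the levels was which epithelial cells carry each step. At a level of 0.2 or more in some epithelial type stood 39 of the 72 members, and 24 of those 39 had their highest level in a goblet type. A further 10 peaked in an absorptive type, 3 in tuft cells, 1 in enteroendocrine cells and 1 in stem or transit-amplifying cells. These counts are a description, since types were clustered on the same cells. They were not made over all genes, so whether such a share is particular to these members was not tested. With levels set per 10000 UMIs of each type, 26 of 39 peaked in a goblet type and 35 kept their highest type.

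By step, of the 18 starting enzymes, 9 reached the level and 8 of these peaked in a goblet type. Of 7 core and branch enzymes 6 reached it, 4 with a goblet peak, and of 16 chain-extending enzymes 10 reached it, again 4 with a goblet peak. Of 12 sialyltransferases 9 reached it, 4 of them highest in goblet cells. Of 7 fucosyltransferases 4 reached it (3 with a goblet peak), and of 12 sulfotransferases only Chst4, which sulfates N-acetylglucosamine on mucin-type chains, did. Steps here follow the name rule, so the goblet peaks include Fut8 and the chain extender B4galnt1, named above as enzymes of other glycans.

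Galnt12 (chromosome 4, 47091909 to 47123070, plus strand, GENCODE vM21 on mm10), a starting enzyme of colon mucins, was at 6.81 ± 0.68 in BasalGoblet, 5.53 ± 1.1 in Goblet1 and 3.07 ± 0.61 in Goblet2 (mean ± SD over mice with at least 10 cells of the type). B3gnt6 (chromosome 7, 98192417 to 98199481, minus strand), the core 3 synthase, was at 1.64 ± 0.85 in BasalGoblet, 0.543 in tuft cells and 0.505 in Goblet1. St6galnac6, which adds an alpha-2,6 sialic acid, was at 12.1 ± 3.2 in BasalGoblet, 6.54 in AltEnterocyte and 4.89 in Goblet1. The second-highest type of both was thus outside the goblet types. St6gal1, which sialylates galactose, was higher in Goblet1 at 3.29 ± 1.3. Goblet enzymes were thus not shared evenly among the goblet types.

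A second set of members was highest in the absorptive lineage. St3gal4, which caps galactose with alpha-2,3 sialic acid, was at 6.51 ± 0.94 in the Enterocyte type, 5.37 in ImmEntero2 and 4.35 in AltEnterocyte. St3gal1 (chromosome 15, 67102875 to 67176830, minus strand), the sialyltransferase of core 1, reached 2.08 ± 0.41 in Enterocyte, St3gal3 2.93 ± 0.45 and the core 2 branching enzyme Gcnt1 1.31 ± 0.17. B3galt5, which makes type 1 chains, was highest in AltEnterocyte at 10.9 ± 2.6. The Enterocyte and ImmEntero2 means rest on 4 mice each, all uninjured, and those of AltEnterocyte on 12 mice, all given DSS. Differences between these types therefore cannot be told apart from injury. Tuft cells led for St6galnac2 (2.18 ± 0.5) and B3galt2 (1.21 ± 1.0).

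**Figure D1:**
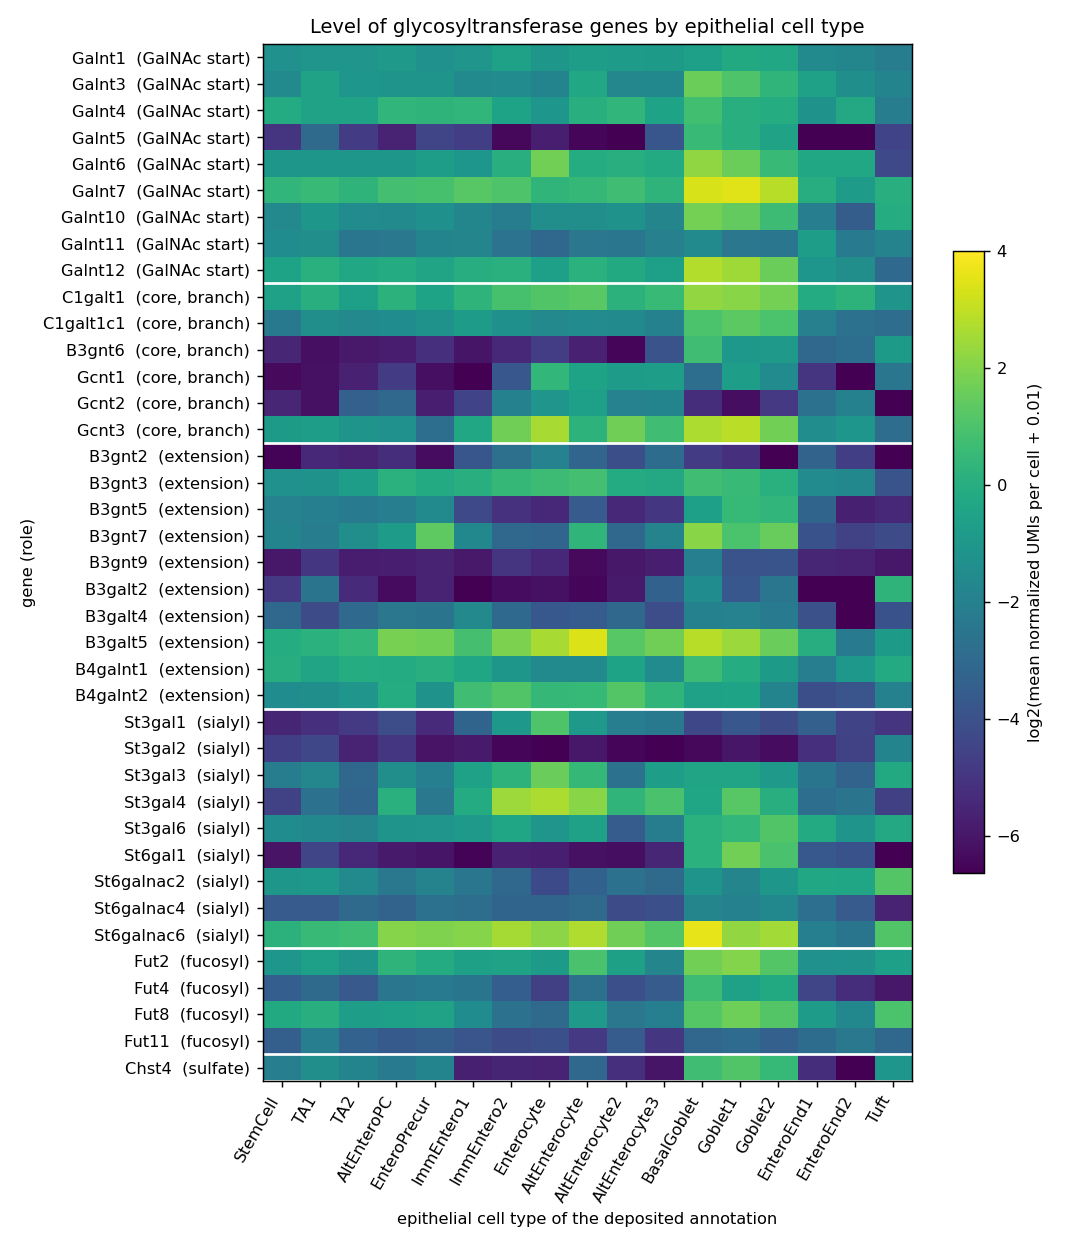
Mean normalised UMIs per cell of the members that reach 0.2 in some epithelial type, on a log2 colour scale after adding 0.01, with members down the side by step and the 17 epithelial types along the bottom. The 24 members with a goblet peak are brightest in a goblet column, while St3gal1, St3gal3, St3gal4 and Gcnt1 are brightest in Enterocyte.

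Within each mouse, goblet cells were then set beside the other epithelial cells of the same animal. Of 41 members with a mean of at least 0.05 in either class, 24 were higher in goblet cells in all 15 mice and 0 were lower in all of them. The mean log2 difference was above 0 for 36 and below 0 for 5. The same counts over all genes were not made, so these are no measure of a trait of the members. St6gal1 averaged 1.64 ± 0.67 in goblet cells and 0.011 elsewhere in the epithelium (149-fold), Galnt5 1.31 ± 0.39 and 0.019 (70.5-fold), and B3gnt6 1.32 ± 0.72 and 0.027 (48.4-fold; SD, n = 15 mice). The same ratio was 12.7 for Fut4, 10.1 for Chst4, 15.3 for B3gnt9, 9.01 for Galnt10, 7.29 for Galnt12, 6.52 for Galnt7, 6.51 for B3gnt7 and 6.41 for C1galt1c1. Lower ratios were found for Gcnt3 (5.22), Galnt6 (4.94), Fut8 (4.34), Fut2 (3.94), C1galt1 (3.76) and B3galt5 (1.95). The 5 members with a mean difference below 0 were Gcnt2 (0.013 in goblet cells and 0.171 elsewhere), St3gal1 (0.045 and 0.25), B3gnt2 (0.026 and 0.055), B4galnt2 (0.614 and 0.933) and St3gal4 (1.14 and 1.41).

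**Figure D2:**
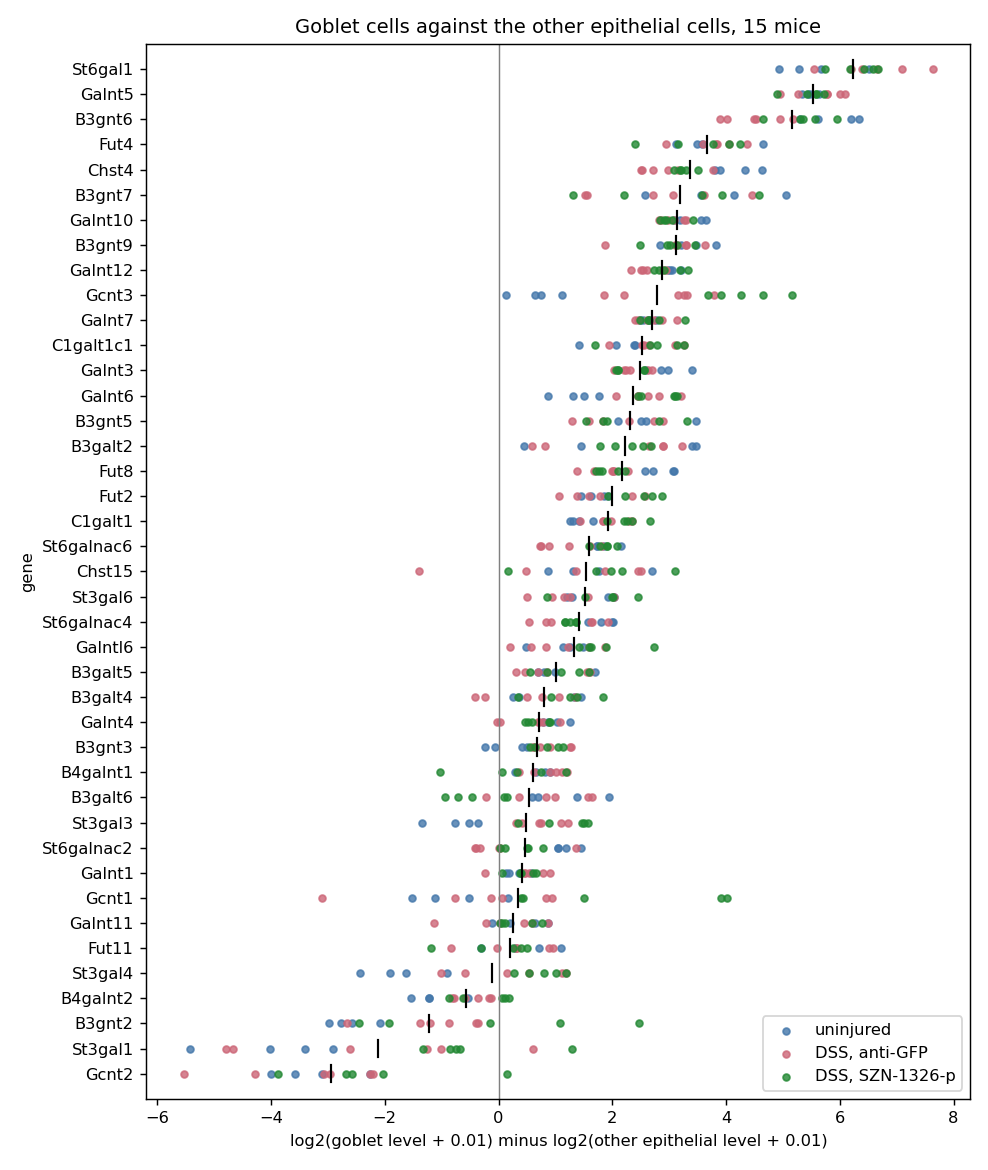
Difference of the log2 levels (after adding 0.01) between goblet cells and other epithelial cells along the bottom, with a coloured point for each of 15 mice by treatment and a bar at the mean, for the 41 members with a mean of at least 0.05 in either class. St6gal1, Galnt5 and B3gnt6 have the highest means, above 0 in every mouse, and Gcnt2, St3gal1, B3gnt2, B4galnt2 and St3gal4 have means below 0.

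The genes whose profile over the 16 epithelial types with at least 100 cells was most like that of Galnt12 were Pmm2 (r = 0.97), which makes mannose 1-phosphate, Sft2d1 (0.96), Ibtk (0.94), the coatomer subunit Copb1 (0.93) and the fucosyltransferase Fut4 (0.93), of 12658 genes compared. For B3gnt6 they were Plpp1 (0.93), the Golgi protein Gopc (0.92), Dixdc1 (0.91), Xkr4 (0.91) and Cog2 (0.90), a subunit of the Golgi tethering complex. These correlations are across cell types that share libraries and depth, and are given as a description.

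The stretch upstream of each annotated start site was read for the 55 members found in the RefSeq promoter table (GRCm38.p6), as windows of 250 bases. A gene with several start sites counted if any of its windows held a match. Motifs were searched on both strands: the STAT motif TTCNNNGAA was found in 4 of the 55 (7.27%, against 8.13% of 27025 genes), the CDX motif TTTATG in 6 (10.9% against 12.4%), the NFKB motif GGGNNNTCC in 13 (23.6% against 16.9%), the TCF/LEF motif CTTTGAT in 1 (Fut8, 1.82% against 3.72%) and the HNF4 motif CAAAGTCCA in 1 (B3gnt3, 1.82% against 0.451%). A match is a run of letters and not evidence of binding. The 4 windows below, picked after the values were seen, belong to members described here in which a CDX or HNF4 match was found. Gcnt2 and St6gal1, also described here, had a CDX match and are not shown. Other start sites of B3galt5 and Gcnt1 had windows without any match. The Gcnt1 and Chst4 windows shown lie inside their genes as GENCODE vM21 gives them (17326141 to 17372844 and 110029153 to 110039740). Capitals mark the matches on the gene's strand or, as CATAAA, the CDX motif on the other strand. The windows run 5′ to 3′ towards a start site.
B3galt5, chr16:96235551-96235800, plus strand, with CDX and STAT letters: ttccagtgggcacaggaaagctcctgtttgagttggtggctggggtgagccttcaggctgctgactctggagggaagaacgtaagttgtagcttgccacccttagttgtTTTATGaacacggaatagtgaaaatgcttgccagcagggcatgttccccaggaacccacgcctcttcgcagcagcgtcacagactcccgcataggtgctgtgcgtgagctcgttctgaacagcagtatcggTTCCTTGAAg
B3gnt3, chr8:71701801-71702050, minus strand, with HNF4 letters: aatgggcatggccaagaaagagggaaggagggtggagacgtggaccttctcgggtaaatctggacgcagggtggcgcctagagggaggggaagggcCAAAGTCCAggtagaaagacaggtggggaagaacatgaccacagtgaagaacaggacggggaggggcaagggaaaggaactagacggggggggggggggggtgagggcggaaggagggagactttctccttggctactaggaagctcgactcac
Chst4, chr8:110039335-110039584, minus strand, with CDX letters: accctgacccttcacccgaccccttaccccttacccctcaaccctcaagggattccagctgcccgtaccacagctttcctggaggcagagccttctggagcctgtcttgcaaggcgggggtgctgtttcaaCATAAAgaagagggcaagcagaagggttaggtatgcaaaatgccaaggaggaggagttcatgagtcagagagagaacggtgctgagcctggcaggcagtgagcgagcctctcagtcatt
Gcnt1, chr19:17356668-17356917, minus strand, with CDX letters: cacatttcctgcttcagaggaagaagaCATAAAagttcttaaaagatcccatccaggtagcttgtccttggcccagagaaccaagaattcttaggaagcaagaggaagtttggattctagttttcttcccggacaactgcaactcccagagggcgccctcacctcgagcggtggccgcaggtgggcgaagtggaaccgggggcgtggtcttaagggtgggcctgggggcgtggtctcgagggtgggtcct

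The DSS comparison was anti-GFP against uninjured mice, the mean of both times. No dosing is listed for the uninjured mice, so DSS and anti-GFP dosing cannot be told apart in it. Changes under or with DSS below refer to this comparison. Differences are log2 changes with their standard errors from limma, and adjusted p-values are Benjamini-Hochberg values over all genes tested. In goblet cells, 3 of the 43 members changed, 1 higher and 2 lower, where 0.753% of 10888 genes were higher and 0.588% lower. The members' median change was 0.11, against -0.09 for all genes, and 11 members (25.6%) had an unadjusted p under 0.05, as had 15.5% of all genes.

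Fut2 (chromosome 7, 45648591 to 45666394, minus strand), the galactoside fucosyltransferase that makes H antigens on gut epithelium, was the member that rose in goblet cells. Its level in uninjured mice was 1.36 and 1.59 at 24 h and 1.70 and 1.83 at 48 h. In anti-GFP mice it was 3.88, 4.49 and 5.91 at 24 h and 4.15, 3.48 and 4.08 at 48 h. Every anti-GFP mouse lay above every uninjured mouse, and the ratio of the means was 2.67. The log2 change was 1.40 ± 0.20 (adjusted p = 0.000211, limma).

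B3gnt7, which extends sulfated chains, fell in goblet cells by 1.19 ± 0.28 on the log2 scale (adjusted p = 0.0307, limma). It was at 4.70, 4.44, 6.88 and 6.51 in the uninjured mice, and at 1.61, 3.63 and 2.14 (24 h) and 3.27, 1.49 and 3.26 (48 h) in the anti-GFP mice, with no overlap. In SZN-1326-p mice it was 4.67, 1.67 and 1.80 at 24 h and 5.38 and 6.35 at 48 h. St6galnac4, which sialylates the inner N-acetylgalactosamine of core 1, fell by 1.22 ± 0.32 (adjusted p = 0.0475, limma). Its goblet levels were 0.358 to 0.453 in uninjured mice and 0.0731 to 0.297 in anti-GFP mice, which do not overlap. The calls of B3gnt7 and St6galnac4 were lost without any of 6 and any of 7 single mice, with adjusted p up to 0.21 and 0.318, and that of Fut2 was kept each time. With no minimum level Fut2 alone was called.

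Among members short of the threshold in goblet cells, the log2 change under DSS was 0.88 ± 0.25 for Gcnt3 (adjusted p = 0.0836, limma), which makes core 2 and core 4 branches, and 0.79 ± 0.21 for B3gnt3 (adjusted p = 0.0507, limma), which extends core 1. B3gnt3 was at 0.892 to 1.40 in uninjured and 1.69 to 2.35 in anti-GFP mice, without overlap. With a term for 4 libraries at 24 h both were called (Gcnt3 0.96, adjusted p = 6.86e-05; B3gnt3 0.82, adjusted p = 0.00237, limma), as were C1galt1 (0.60), B3gnt6 (-0.80) and St6galnac6 (-0.65). Those 4 libraries were picked by their TA1 and TA2 cell counts in these same data, so the calls with that term are a description. The summed level of 10 immune markers in goblet cells was 0.25 to 2.15 in uninjured and 0.26 to 2.59 in anti-GFP mice.

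In the epithelium as a whole, 13 of 46 members changed with DSS, 5 higher and 8 lower. Over all 10795 genes 10.8% were higher and 12.5% lower, so the members' shares are near that background. Their median change was 0.10, against 0.0050 for all genes. By step, of 8 sialyltransferases tested 5 fell and 0 rose (median -0.77), and of 10 starting enzymes 2 rose and 0 fell. Core and branch enzymes (7) and chain extenders (14) had 1 in each direction, as did the 5 fucosyltransferases, and the 2 sulfotransferases had none. Whether steps differ from each other was not tested.

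Fut2 rose here as well. It was at 0.672 and 0.597 (24 h) and 0.643 and 0.699 (48 h) in uninjured epithelium and at 1.25, 1.83 and 1.88 (24 h) and 1.73, 2.01 and 1.95 (48 h) in anti-GFP mice, 2.72-fold by the means. No mouse of one group reached the other, and the log2 change was 1.42 ± 0.13 (adjusted p = 2.72e-06, limma). The starting enzyme Galnt4 was at 0.691 to 0.945 in uninjured mice and 1.04 to 1.26 in anti-GFP mice, also without overlap (0.49 ± 0.11, adjusted p = 0.00593, limma). Galnt3 rose by 0.49 ± 0.17 (adjusted p = 0.0465, limma) with overlapping groups, and its call was lost without any of 7 single mice.

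The sialyltransferases that fell were St3gal1, St3gal3, St3gal4, St3gal6 and St6galnac4. St3gal1 was at 0.433, 0.801, 0.515 and 0.389 in uninjured mice, and at 0.121, 0.22 and 0.116 (24 h) and 0.213, 0.0943 and 0.0741 (48 h) in anti-GFP mice. The groups did not overlap, and the change was -1.91 ± 0.30 (adjusted p = 0.000336, limma). St3gal4 was at 2.24 to 3.04 and at 0.524 to 2.25, where anti-GFP mouse 1 at 48 h reached into the uninjured range, and changed by -1.21 ± 0.23 (adjusted p = 0.00125, limma). St3gal3 changed by -1.07 ± 0.16, from 0.82 to 1.33 down to 0.41 to 0.776. Gcnt1 also fell (-0.81 ± 0.22, adjusted p = 0.0156, limma), and like St3gal1, St3gal3 and St3gal4 it peaked in the Enterocyte type.

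That type made up 22.3% ± 2.48 and 16.8% ± 4.25 of epithelial cells in uninjured mice at 24 h and 48 h (SD, n = 2 each) and at most 0.25% on average in any injured group. The summed level of 9 colonocyte markers in epithelial cells was 171 to 273 in uninjured mice and 62.8 to 134 in anti-GFP mice. When 7 types present in most mice were given fixed weights, an alternative chosen after seeing the data, St3gal1 (0.86), St3gal3 (0.41) and St3gal4 (0.84) had positive log2 changes. The 7 types were AltEnteroPC, BasalGoblet, EnteroEnd1, Goblet1, TA1, TA2 and Tuft. Enterocyte, where these members were highest, is not among them, so those changes say nothing of their level in that type. Under those weights 13 members changed, 10 higher and 3 lower, and 6 of them were among the 13 above: Fut2 (1.55), St6galnac4 (-0.88), Fut9 (-1.96), B4galnt4 (1.58) and Gcnt4 (1.75) were called in the direction given here, and St3gal4 turned to a rise (adjusted p = 0.00728, limma). Averaging the deposited log2 values instead gave 12 higher and 6 lower. The shares of all genes called were not counted under these alternatives, so both counts stand without a background. B3galt5, at 2.54 to 4.22 in uninjured and 3.43 to 6.24 in anti-GFP mice, rose under fixed weights (1.00, adjusted p = 0.000261, limma) and had 0.51 ± 0.18 in the whole epithelium (adjusted p = 0.0509, limma).

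The other 4 called members were at 0.136 or less in every mouse. Gcnt4 (branching) was at 0.0216 or less in uninjured mice and 0.0243 to 0.076 in anti-GFP mice (1.73 ± 0.31). B4galnt4 (LacdiNAc chains) was at 0.0112 or less and 0.0186 to 0.0751 (1.36 ± 0.31). Both passed the minimum level only through injured mice. Its relative B4galnt3 fell by 1.19 ± 0.30 and Fut9, which makes Lewis X, by 1.68 ± 0.46. B4galnt3 passed it only through uninjured mice, and Fut9 through 3 uninjured mice and 1 anti-GFP mouse. The minimum level favours the direction found for these 4, so their directions, also under fixed weights, are no support. The immune marker sum in epithelial cells was 0.26 to 1.74 in uninjured and 0.61 to 35.6 in anti-GFP mice. Without cells holding 2 or more markers of immune or stromal cells, 12 of the 13 members were again called.

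**Figure D3:**
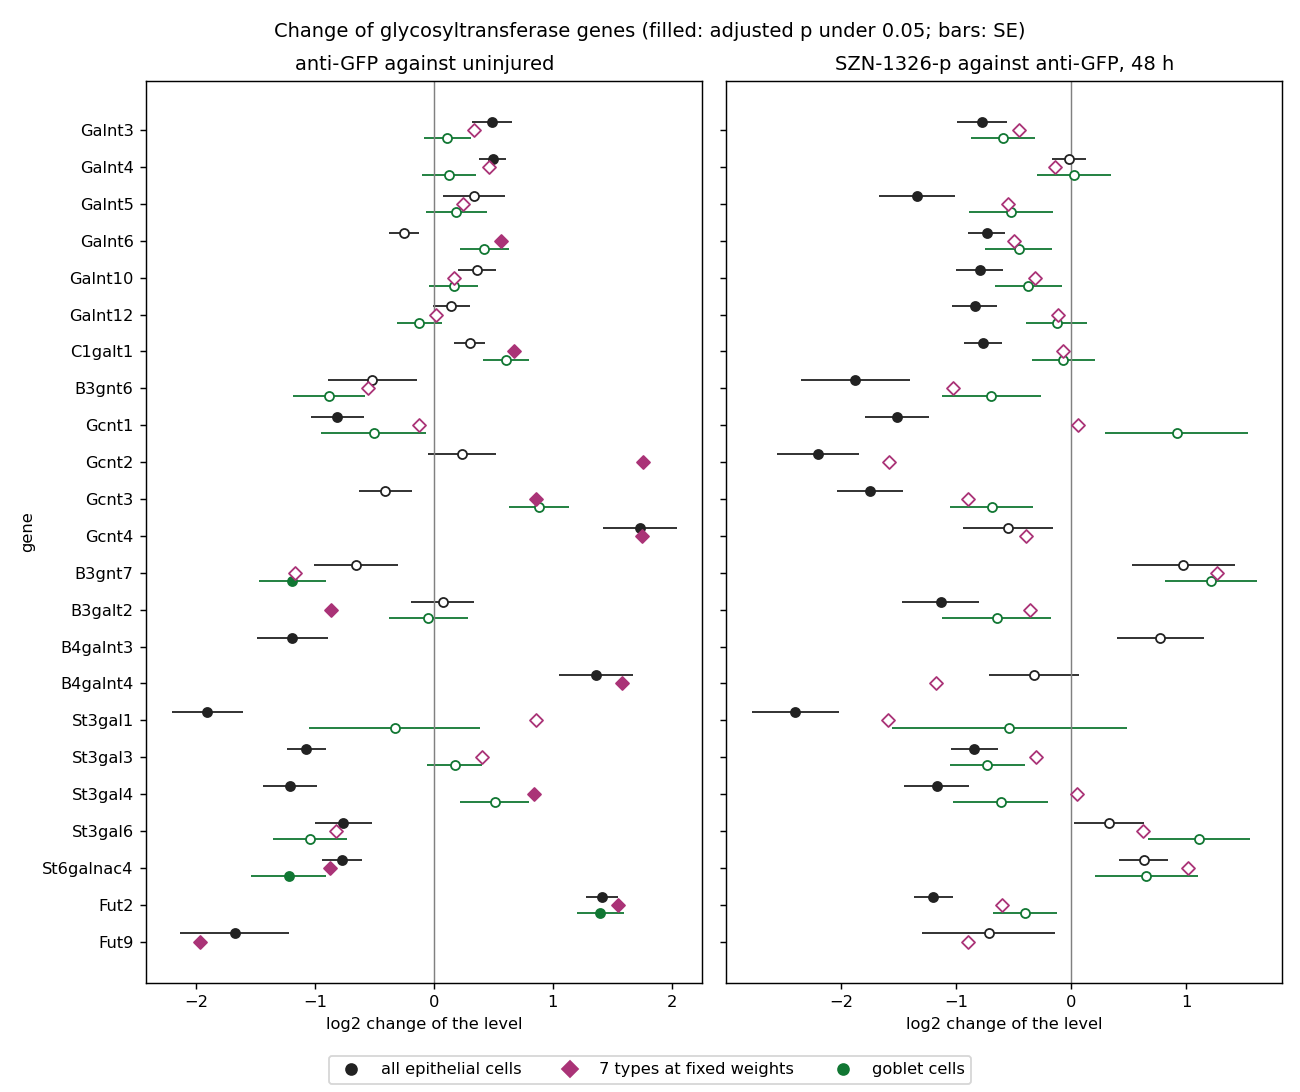
Log2 change of each member called in either comparison, for DSS (left) and for SZN-1326-p at 48 h (right), in all epithelial cells (black), in the 7 types at fixed weights (diamonds) and in goblet cells (green). Bars are standard errors and filled symbols have an adjusted p under 0.05: Fut2 is filled in all 3 under DSS, and at 48 h only black points, all of them below 0, are filled.

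Whether goblet cells changed differently from their neighbours was tested on the difference between goblet and other epithelial cells within each mouse. Of 36 members, 5 had a DSS change that differed between them, 3 towards goblet cells and 2 towards the other cells, against 0.617% and 0.537% of 10047 genes. The largest was Gcnt3 (chromosome 9, 70031496 to 70038088, minus strand). In goblet cells it was at 2.52, 5.37, 3.42 and 5.08 in uninjured mice and 7.05, 4.68, 11.6, 8.36, 6.93 and 6.42 in anti-GFP mice. In the other epithelial cells it was at 2.29, 3.19, 2.19 and 2.35 and at 1.53, 1.29, 1.16, 0.926, 0.714 and 0.458. So the level went up on average in goblet cells, with overlap, and was lower in every anti-GFP mouse in the other cells, and the difference of the changes was 2.27 ± 0.29 (adjusted p = 0.00498, limma).

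Galnt6, another starting enzyme, had a difference of 1.25 ± 0.24 (adjusted p = 0.0296, limma). It was at 2.39 to 3.81 in goblet cells of uninjured mice and 3.22 to 6.08 in anti-GFP mice, while in the other cells it was at 1.12 to 1.41 and 0.467 to 0.971. St3gal3 differed by 1.49 ± 0.25 (adjusted p = 0.0157, limma), with overlapping goblet levels (0.415 to 0.806 and 0.622 to 0.985) and lower levels elsewhere (0.851 to 1.37 and 0.335 to 0.734). Chst4 and Fut8 went the other way. Chst4 was at 1.07 to 1.95 and 0.763 to 2.56 in goblet cells and at 0.0645 to 0.0968 and 0.0876 to 0.349 elsewhere (-1.23 ± 0.23, adjusted p = 0.0281, limma). Fut8 was at 2.16 to 3.79 and 2.06 to 3.26 in goblet cells and rose elsewhere, from 0.247 to 0.435 up to 0.523 to 0.84 (-0.97 ± 0.18, adjusted p = 0.0281, limma). For all 5 the groups overlapped in goblet cells, and each call was lost without at least 1 single mouse. Without uninjured mouse 1 at 48 h no member was called. The types that make up the other epithelial cells differ between uninjured and injured mice, as given above.

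**Figure D4:**
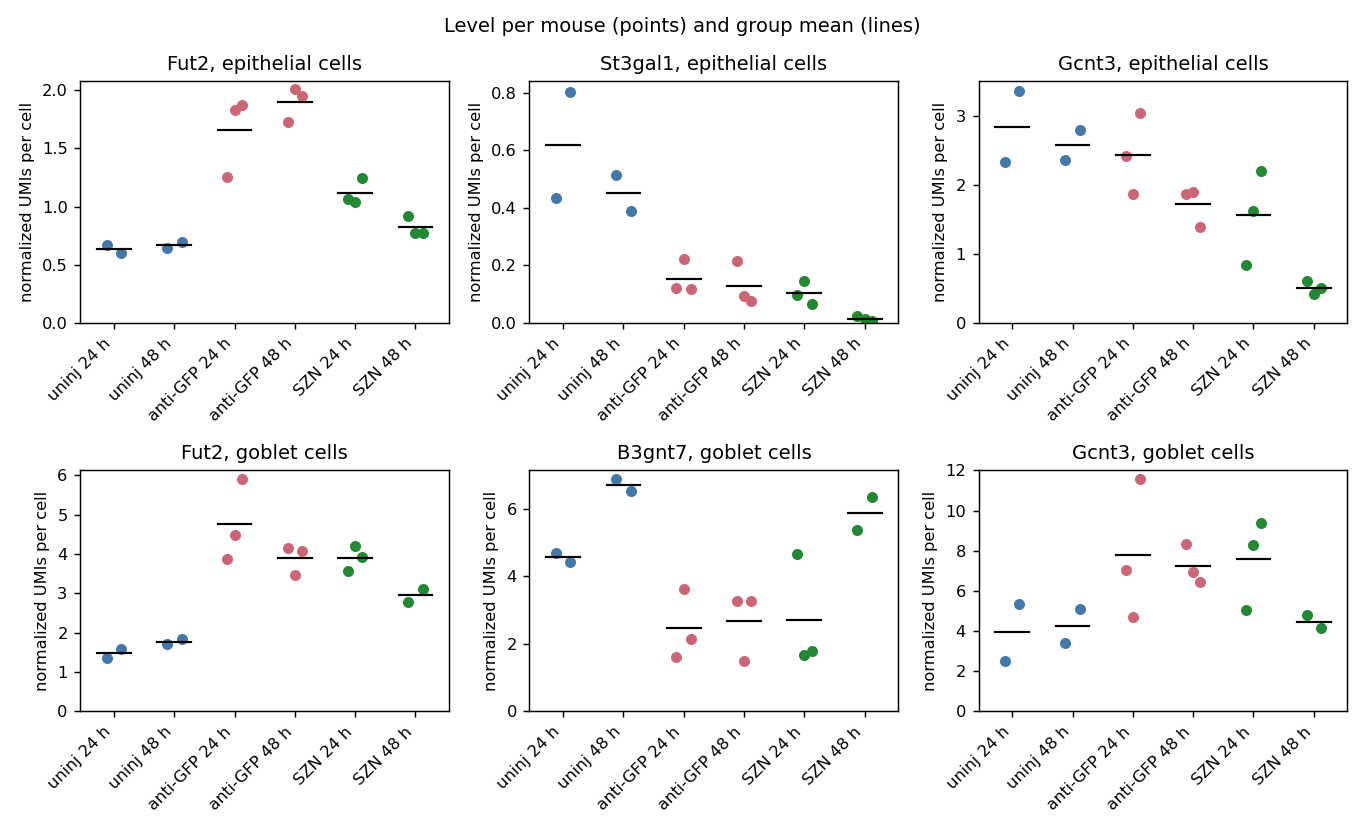
Mean normalised UMIs per cell in each mouse (points) and group mean (lines) by group, for Fut2, St3gal1 and Gcnt3 in all epithelial cells and for Fut2, B3gnt7 and Gcnt3 in goblet cells. Fut2 is higher in every anti-GFP mouse than in any uninjured mouse in both, and in whole epithelium the SZN-1326-p mice lie between them.

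SZN-1326-p was compared with anti-GFP at the same time. These comparisons share the anti-GFP mice with the DSS comparison, so values are given side by side. In goblet cells 0 of 43 members changed at 24 h, 48 h or over both times by limma, where 0%, 0.0459% and 0.0643% of all genes changed. At an unadjusted p under 0.05 stood 3, 6 and 9 members (6.98%, 14% and 20.9%), beside 7.36%, 7.55% and 10.6% of all genes, and limma with voom weights on the recovered UMI sums also called 0 at each. Fut2 remained at 3.58, 4.21 and 3.92 at 24 h and 2.79 and 3.11 at 48 h in goblet cells, above every uninjured mouse. At 48 h the largest goblet changes were those of B3gnt2 (2.03 ± 1.05, adjusted p = 0.701, limma) and B3gnt7 (1.21 ± 0.40, adjusted p = 0.427) upwards and B4galnt1 (-1.50 ± 0.40, adjusted p = 0.245) downwards.

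In the whole epithelium at 24 h, 2 of 46 members changed, 1 in each direction, against 5.89% of genes higher and 4.25% lower. C1galt1, the core 1 synthase, was at 2.21, 2.64 and 1.91 in anti-GFP mice and 1.35, 1.43 and 1.39 in SZN-1326-p mice, which do not overlap (-0.68 ± 0.17, adjusted p = 0.0173, limma). B3galt6 was at 0.0365, 0.0586 and 0.118 and at 0.115, 0.129 and 0.197, which overlap (1.05 ± 0.30, adjusted p = 0.0378, limma). Both calls were lost without single mice: without anti-GFP mouse 2 no member was called. Without the SZN-1326-p mice of higher mitochondrial share over all cells (mouse 2 at 24 h and mouse 3 at 48 h) the count was 0 as well. With the term for 4 libraries it was 8, and the share of all genes called with that term was not counted.

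At 48 h, 0 members were higher and 15 of 46 lower in the epithelium, while 2.41% of genes were higher and 10.1% lower. The members' median was -0.50, against -0.11 for all genes. Of 7 core and branch enzymes 5 fell (median -1.51), of 10 starting enzymes 5 (-0.60), of 8 sialyltransferases 3 (-0.58), and 1 each of the chain extenders and fucosyltransferases. No member differed between 48 h and 24 h in the test of that difference (0 by limma; 0.139% of all genes were called). At an unadjusted p under 0.05 stood 10 members (21.7%), and 9.17% of all genes. Over both times 1 of 46 was higher and 19 lower, against 10.9% and 17.2% of genes.

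The core and branch enzymes that fell at 48 h were lower in each treated mouse than in any anti-GFP mouse of that time. Gcnt3 was at 1.87, 1.90 and 1.39 in anti-GFP mice and 0.607, 0.412 and 0.501 in SZN-1326-p mice (-1.75 ± 0.28, adjusted p = 0.000713, limma). Gcnt2, which branches I antigen chains, was at 0.395, 0.163 and 0.115 and at 0.0284, 0.0416 and 0.0359 (-2.20 ± 0.36, adjusted p = 0.000734, limma). B3gnt6 was at 0.182, 0.245 and 0.206 and at 0.0761, 0.0231 and 0.0649 (-1.88 ± 0.47, adjusted p = 0.019, limma). C1galt1 fell as at 24 h (-0.76 ± 0.17, adjusted p = 0.00611, limma), and Gcnt1 by 1.51 ± 0.28.

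Of the starting enzymes, Galnt12 was at 1.65, 2.05 and 1.45 in anti-GFP epithelium at 48 h and 1.01, 0.821 and 1.01 after SZN-1326-p (-0.84 ± 0.20, adjusted p = 0.00966, limma). In goblet cells alone it was at 5.96, 6.92 and 4.94 and at 5.61 and 5.19, which overlap. Galnt3, Galnt5, Galnt6 and Galnt10 fell too, by 0.78, 1.34, 0.73 and 0.79. St3gal1 had the largest change of all members: 0.213, 0.0943 and 0.0741 in anti-GFP mice and 0.0239, 0.013 and 0.00721 in treated mice, without overlap (-2.40 ± 0.38, adjusted p = 0.000646, limma). St3gal4 (-1.17 ± 0.28), St3gal3 (-0.84 ± 0.21) and the tuft-rich B3galt2 (-1.13 ± 0.33) completed the list with Fut2. Leaving out single mice lost 8 of the 15 calls at least once. Without SZN-1326-p mouse 2 at 48 h, the count was 8. St6galnac4 was the 1 member higher over both times (0.65 ± 0.15, adjusted p = 0.00499, limma), at 0.103 to 0.121 (24 h) and 0.158 to 0.173 (48 h) after SZN-1326-p beside 0.0518 to 0.122 in anti-GFP and 0.124 to 0.19 in uninjured mice.

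The makeup of the epithelium moved with these falls. At 48 h goblet cells were 12.8% to 19.1% of epithelial cells in anti-GFP mice and 4.01% to 9.76% in SZN-1326-p mice, and the summed goblet markers (14 genes) 213 to 336 and 53.7 to 139. The colonocyte marker sum was 62.8 to 134 and 20.2 to 24.4 (beside 171 to 273 in uninjured mice), and the tuft marker sum 1.48 to 3.19 and 0.23 to 0.60. The EnteroPrecur type made up 5.69% ± 3.65 and 37.7% ± 4.16 of epithelial cells (SD, n = 3 each). With the 7 types at fixed weights, 0 members were called at 48 h by limma, and changes there were 0.061 for Gcnt1 and 0.052 for St3gal4, -0.073 for C1galt1, -0.11 for Galnt12, -0.90 for Gcnt3 (adjusted p = 0.319, limma) and -1.59 for St3gal1 (adjusted p = 0.291, limma). The 7 types leave out EnteroPrecur and the enterocyte types. With goblet cells left out instead, another alternative chosen after seeing the data, 13 members were called at 48 h, 2 higher and 11 lower, and 10 of these were among the 15. Gcnt3 had -1.92 there, B3gnt6 -1.69 and Gcnt1 -2.27. The share of all genes called was not counted under either alternative.

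Fut2 kept its call over both times at fixed weights (-0.51, adjusted p = 0.0447, limma) but not at 48 h (-0.60, adjusted p = 0.202, limma). In the whole epithelium at 48 h it was at 1.73, 2.01 and 1.95 in anti-GFP mice and 0.917, 0.771 and 0.773 after SZN-1326-p, beside 0.643 and 0.699 in uninjured mice (-1.20 ± 0.17, adjusted p = 0.000262, limma). At 24 h it was at 1.07, 1.04 and 1.24 after SZN-1326-p and 1.25, 1.83 and 1.88 in anti-GFP mice, close to the threshold (-0.54 ± 0.17, adjusted p = 0.0501, limma). Every treated mouse lay between the uninjured and the anti-GFP mice in the whole epithelium at both times.

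Within single types, levels are given as a description for mice with at least 10 cells of the type. In AltEnteroPC, Fut2 was at 0.57 ± 0.20 in uninjured mice (n = 4), 1.91 ± 0.60 in anti-GFP mice (n = 6), 0.96 ± 0.20 at 24 h and 0.93 ± 0.17 at 48 h of SZN-1326-p (n = 3 each). In TA2 it was at 0.18 ± 0.09, 0.81 ± 0.17, 0.35 ± 0.08 and 0.39 ± 0.08 in that order (n = 4, 4, 3 and 3). In EnteroPrecur, the type that grew at 48 h, it was at 0.43 ± 0.05 (n = 3), 2.12 ± 0.60 (n = 2, both at 48 h) and 0.68 ± 0.11 (n = 3 at 48 h). In each of these types every anti-GFP mouse lay above every uninjured and every SZN-1326-p mouse.

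In BasalGoblet, Fut2 was at 1.82 ± 0.26 in uninjured mice (n = 4), 4.13 ± 0.74 in anti-GFP mice (n = 6), 3.63 ± 0.53 at 24 h and 3.45 ± 0.52 at 48 h of SZN-1326-p, where the latter groups overlap. In TA1, uninjured mice (0.00 to 0.74) overlapped anti-GFP mice (0.55 to 0.79), and the 48 h SZN-1326-p mean was 1.07 ± 0.43. In AltEnterocyte3 the anti-GFP mean, 0.20 ± 0.10 (n = 3), was below the uninjured one, 0.47 ± 0.35 (n = 2). Whether the SZN-1326-p change of Fut2 differs between goblet and other epithelial cells was tested and not called (0.63 ± 0.21, adjusted p = 0.217, limma), and in that comparison 0 of 36 members and 0% of genes were called by limma. At an unadjusted p under 0.05 stood 9 members (25.0%) and 14% of all genes.

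B3galt5 in AltEnteroPC was at 0.96 ± 0.58 in uninjured and 4.49 ± 0.98 in anti-GFP mice, and in TA2 at 0.54 ± 0.13 and 1.46 ± 0.53, with no overlap in either type. In BasalGoblet it was at 6.49 ± 0.44 and 8.08 ± 0.56, where the groups overlap. Gcnt3 in BasalGoblet was at 3.84 ± 1.37 and 8.45 ± 2.93, and B3gnt7 at 6.72 ± 1.73 and 2.49 ± 1.29. B3gnt7 was at 2.92 ± 2.08 and 6.33 ± 3.34 there after SZN-1326-p at 24 h and 48 h. St3gal4, whose level fell in the whole epithelium, was at 0.29 ± 0.33 in AltEnteroPC of uninjured mice and 1.15 ± 0.64 in anti-GFP mice.

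**Figure D5:**
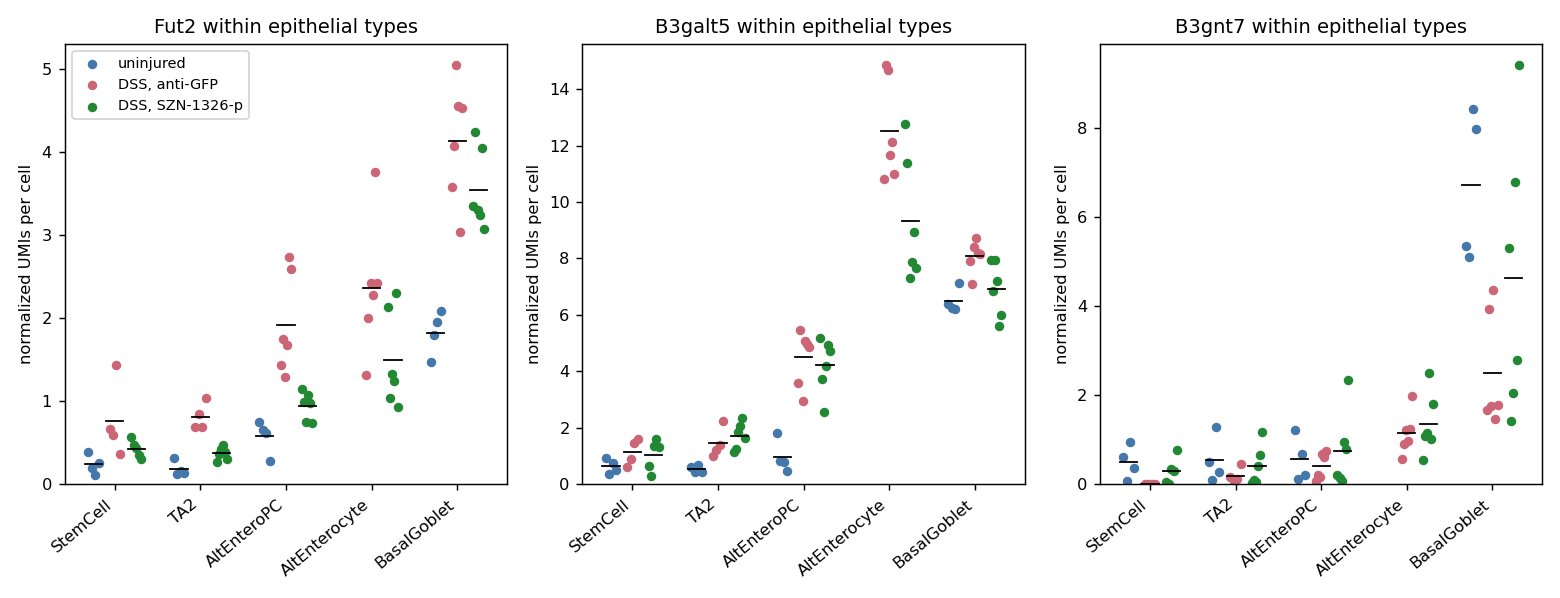
Mean normalised UMIs per cell of Fut2, B3galt5 and B3gnt7 within 5 epithelial types, with a point for each mouse holding at least 10 cells of the type, both times together, and a line at the mean. Fut2 in AltEnteroPC and TA2 is highest in the anti-GFP mice, and in BasalGoblet the SZN-1326-p mice lie among them.

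The 4 neighbouring lists of genes, also chosen with earlier results known, were read in the same fits. In goblet cells under DSS, 1 of 13 mucins and mucus proteins rose, the membrane mucin Muc1 (2.29 ± 0.39, adjusted p = 0.00243, limma), from 0.114 to 0.296 up to 0.275 to 2.98, and Muc2 did not change by the test (0.16 ± 0.18, adjusted p = 0.711, limma). Of the other glycan-chain enzymes, B4galt1, which adds galactose, rose (1.43 ± 0.34, adjusted p = 0.0275, limma). The shares of all genes were 0.753% higher and 0.588% lower. None of the 28 genes of sugar and sulfate donor supply and none of the secretory chaperones changed in goblet cells, and no listed gene changed there with SZN-1326-p.

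In the whole epithelium under DSS, of 28 donor-supply genes 2 rose, the GDP-fucose transporter Slc35c1 (0.62 ± 0.13, adjusted p = 0.00369, limma) and the fucose kinase Fuk (0.61 ± 0.13, adjusted p = 0.00288, limma), and 4 fell, among them Papss1 (-1.24 ± 0.19), which makes the sulfate donor, and the CMP-sialic acid transporter Slc35a1 (-0.49 ± 0.17, adjusted p = 0.0392, limma). Of 24 other glycan enzymes 5 rose and 1 fell, of 11 mucin genes 2 rose and 1 fell, and of 13 chaperones 2 rose, where 10.8% of all genes rose and 12.5% fell. With SZN-1326-p at 48 h, 2 of the 11 mucin genes fell (10.1% of all genes did), Muc2 (-2.06 ± 0.50, adjusted p = 0.0118, limma) and Muc4 (-0.75 ± 0.22, adjusted p = 0.0366, limma). In goblet cells alone Muc2 had -0.67 ± 0.26 (adjusted p = 0.533, limma). B4galt1 fell by 0.99 ± 0.17 in the epithelium at 48 h and Mgat3, an N-glycan branching enzyme, by 0.68 ± 0.15. The nucleotide-sugar transporter Slc35d1 fell at both times, by 1.03 and 1.05 (standard error 0.21 each).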

How the data were processed

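Reads were aligned to mm10 and counted with Cell Ranger 3.0.2, per the submitters' processing notes. The table deposited by the authors holds log2(x + 1), where x is a UMI number scaled by 1 factor in each cell. After the log was undone, 100% of 60867816 values above 0 were whole numbers of their cell's lowest value (tolerance 1e-06). How size factors were set, cells filtered and doublets treated is not given in the sources used here. Cell types and libraries come from the deposited annotation, where libraries were matched to mice by group, time and number. There the SZN-1326-p libraries carry another name and were matched as the one treated group that remained. Per the labels, each animal is a replicate.

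Per mouse, un-logged values were averaged over all epithelial, goblet or other epithelial cells. Mice with under 20 cells of a class and genes under 0.05 in all but 1 mouse were left out. log2(mean + 0.01) was tested with limma 3.58.1 (trend, robust; R 4.3.3), all 6 groups in one fit, with Benjamini-Hochberg adjustment over all genes and a threshold of 0.05. The added 0.01 makes a change understate the fold of very low genes. The script was tested on simulated data. Cell types were clustered on these cells, so levels between types have no test.

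Members, roles, lists and tests were chosen with earlier results of these data known. Members are named where they passed a test, belonged to a list of main mucin enzymes or had the largest changes of a comparison, and up to 4 called genes of a pathway list are named. Alternatives were the pseudocount, the minimum level, the groups fitted, a replicate block, averaging log values, fixed weights of the goblet types, voom weights on recovered UMI sums, cells and mice left out, a term for 4 libraries at 24 h (those with more TA1 than TA2 cells, named in the text), and, added after seeing the data, fixed weights of epithelial types and epithelium without goblet cells.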

Additional observations from a re-analysis of the deposited data

Results flagged for a closer look

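For 5 members the DSS change in goblet cells differed from that in the other epithelial cells of the same mice (limma on the difference within each mouse, log2 scale). The difference was 2.27 for Gcnt3, 1.49 for St3gal3 and 1.25 for Galnt6, in which the change lay towards goblet cells. It was -1.23 for Chst4 and -0.97 for Fut8, in which the change lay towards the other cells. The share of each epithelial type among the other cells moved with injury, and its part in these differences was not tested. Each of the 5 calls was lost without at least 1 mouse. Of the members, 1 was called with the replicate block, 1 with only the compared groups and 2 without SZN-1326-p mouse 2 at 24 h and mouse 3 at 48 h.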

How the results depend on the processing

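Counts of called members are given against the 13 (DSS), 2 (SZN-1326-p at 24 h), 15 (48 h) and 20 (both times) of the epithelium, 3 (DSS) in goblet cells, and 5 (DSS) and 0 (SZN-1326-p) for goblet minus other cells. The share of all genes called was not counted under the alternatives below, so these counts stand without a background. Without goblet cells the epithelial counts were 20, 8, 13 and 17. The fixed weights below leave out EnteroPrecur and the enterocyte types. With the 7 types at fixed weights the counts were 0 at 24 h, 0 at 48 h and 1 over both times, and some members turned: under DSS St3gal3 0.41, St3gal4 0.84, St3gal1 0.86, B3galt2 -0.86, Gcnt3 0.86 and Galnt6 0.56, at 48 h St3gal4 0.052 and Gcnt1 0.061, and over both times St3gal4 0.15. At 24 h the epithelial count was 4 with a pseudocount of 0.1, 1 without a minimum level, 0 with only the compared groups, 8 from averaged log2 values, 10 with voom, 1 without cells holding 2 foreign markers, 0 without both SZN-1326-p mice of higher mitochondrial share (mouse 2 at 24 h, mouse 3 at 48 h) and 8 with the term for 4 libraries. At 48 h voom gave 8, and over both times 12 were called without those mice. Goblet cells under DSS had 1 without a minimum level and 8 with the library term, which also gave 1 at 48 h and 1 over both times. The goblet minus other count under DSS was 9 with the larger pseudocount, 3 without a minimum, 1 with only the compared groups, 8 from log2 values and 2 without those mice, and for SZN-1326-p it was 2 and 1 with the larger pseudocount and log2 values. The cause was not tested.

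Leaving out 1 mouse at a time gave 7 (without uninjured mouse 1 at 48 h) to 17 under DSS, 0 to 5 at 24 h, 8 to 14 at 48 h and 14 to 22 over both times in the epithelium. It gave 1 (without uninjured mouse 1 at 24 h) to 6 in goblet cells under DSS, and 0 to 6 and 0 to 1 for goblet minus other cells. Deviations from the group means in epithelial cells had r from -0.305 to 0.445 between same-numbered anti-GFP and SZN-1326-p mice. Between mice of different numbers r was -0.619 to 0.405. With 3 mice for each group these values cannot decide whether the numbers pair mice. The replicate block gave 6 epithelial calls at 24 h, 5 goblet calls under DSS and 1 for goblet minus other cells under DSS. Goblet comparisons rest on 30 to 202 cells per mouse (the mouse with 18 was left out), and what that number kept from being called was not tested. Voom weights could not be applied to differences between classes.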

Other observations

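Of the 33 members below 0.2 in every epithelial type, 19 reached that level in a stromal or immune type and 14 in none. Galnt18 was at 3.35 and Chst15, which sulfates chondroitin chains, at 1.41 in LymphEndo (lymphatic endothelium by its name). In ActNeutrophil, the activated neutrophils, Chst11, a chondroitin sulfotransferase, was at 2.66 and St3gal5, which makes the ganglioside GM3, at 1.19. St6galnac3 was at 1.14 in Tcell2, Chst1 at 1.13 in CryptFB2, Galnt15 at 1.00 in VascEndo and Galnt16 at 0.964 in VascSmMuscle1. Of the 39 members at 0.2 or more in an epithelial type, 11 were higher still in a stromal or immune type. These are mean normalised UMIs per cell over all mice, with no test.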
